A study of Mus musculus with 10 samples.

Results

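The genes described here encode the replicative DNA helicase and the factors that load and start it: Mcm2, Mcm3, Mcm4, Mcm5, Mcm6, Mcm7, Mcm10, Cdc45, Cdt1 and claspin. They were picked by their role in replication and found by gene symbol in the deposited gene table. They are 10 of the 55487 genes in that table. Of the 10 symbols requested, 9 matched as given, and claspin was found under its mouse symbol, Clspn (ENSMUSG00000042489).

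The libraries came from cerebral cortex of mice aged 18 days (P18), with 5 Usp7 cKO and 5 Usp7 WT libraries. Every animal of both groups was Trp53+/-, so the controls also lacked 1 copy of the p53 gene. In the Usp7 cKO animals, floxed Usp7 alleles (Usp7 fl/fl) were combined with NEX-cre, which acts in glutamatergic neurons, and the other cells of the cortex keep Usp7. The labels do not say whether the Usp7 WT animals carried Cre. The pairs of animals were matched for litter and sex, but the labels do not name the pairs. Each library was made from total RNA after removal of ribosomal RNA, with random priming.

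Before a cell copies its DNA, origins are licensed: the origin recognition complex, CDC6 and CDT1 load a ring of MCM2, MCM3, MCM4, MCM5, MCM6 and MCM7 onto the DNA. Geminin binds CDT1 and blocks further loading. CDC45 joins the loaded ring to form the working helicase, MCM10 takes part in its activation, and claspin links the replication fork to the checkpoint kinase CHK1. These genes are classical E2F targets and their transcripts are abundant in dividing cells. Most neurons of the cortex at this age are postmitotic, while precursors of oligodendrocytes still divide. USP7 removes ubiquitin from many proteins, p53 and its ligase MDM2 among them, and claspin and the MCM-binding protein MCMBP have also been described as its partners.

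Assigned exon bin counts per library ran from 42628526 to 51797145. Usp7, the targeted gene, was at 48.3 to 61.9 TPM (a level scaled for transcript length and for the library's total) in Usp7 WT against 31.6 to 40.9 TPM in Usp7 cKO. The difference was -0.54 on the log2 scale, as measured in whole tissue in which only some cells carry the deletion. The sex read from Xist and Ddx3y went against the label in 2 libraries, Usp7 cKO replicate 1 and Usp7 WT replicate 2, and followed it in the other 8. The calls of the members and of most marker lists are also given without both libraries. The test of genotype by sex was run only with them. Libraries of a group are treated as separate animals, as the labels describe. In whole tissue, fewer cells of a type and less RNA per cell cannot be told apart.

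The upstream sequences of Mcm6, Cdt1 and Mcm2, the members whose transcripts rose, are shown with that of Mcm5, a helicase subunit that did not pass the test. They are the 250 bases before the RefSeq transcription start, on the gene's strand, build GRCm38.p6, and none of them overlaps an annotated exon. Mcm6 is chr1:128359706-128359955 on the minus strand, Cdt1 is chr8:122567765-122568014 on the plus strand, Mcm2 is chr6:88898781-88899030 on the minus strand and Mcm5 is chr8:75109259-75109508 on the plus strand. Capitals mark matches to the E2F letters TTTCCCGC, TTTCGCGC, TTTGCCGC or TTTGGCGC on either strand.
Mcm6: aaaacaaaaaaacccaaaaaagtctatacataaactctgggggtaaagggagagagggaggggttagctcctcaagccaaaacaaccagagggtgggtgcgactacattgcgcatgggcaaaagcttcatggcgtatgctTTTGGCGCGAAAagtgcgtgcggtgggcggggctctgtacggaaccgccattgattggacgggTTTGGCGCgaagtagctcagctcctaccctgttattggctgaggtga
Cdt1: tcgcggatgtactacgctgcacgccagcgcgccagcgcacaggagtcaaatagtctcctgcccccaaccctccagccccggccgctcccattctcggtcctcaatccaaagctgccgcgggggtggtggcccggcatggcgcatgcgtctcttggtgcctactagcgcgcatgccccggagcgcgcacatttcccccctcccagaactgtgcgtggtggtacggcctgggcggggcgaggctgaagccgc
Mcm2: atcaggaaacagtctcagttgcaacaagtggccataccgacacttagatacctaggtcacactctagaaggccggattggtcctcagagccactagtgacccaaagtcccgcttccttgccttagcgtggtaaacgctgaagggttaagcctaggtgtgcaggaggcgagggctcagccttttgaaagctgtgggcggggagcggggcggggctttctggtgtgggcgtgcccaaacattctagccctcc
Mcm5: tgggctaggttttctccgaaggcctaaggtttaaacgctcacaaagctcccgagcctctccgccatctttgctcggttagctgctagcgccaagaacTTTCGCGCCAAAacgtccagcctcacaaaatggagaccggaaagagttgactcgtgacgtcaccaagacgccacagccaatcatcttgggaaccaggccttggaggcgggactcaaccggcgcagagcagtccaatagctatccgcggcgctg

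The Mcm6 sequence held 3 matches, beginning at -110, -106 and -47 relative to the start, of which the first pair overlap on opposite strands. In Mcm5, 2 matches also overlapped on opposite strands, beginning at -153 and -149. The Cdt1 stretch shown held none. Its only match began at base 33 after the start, outside the printed bases. Mcm2 held none in its whole window. RefSeq promoters of 300 bases (250 before to 50 after the start) were found for 9 of the 10 genes, Mcm7 with 2 starts, and not for Mcm4. An E2F match was present in 6 of these 9 genes (Mcm3, Mcm5, Mcm6, Mcm7, Cdt1 and Clspn) and absent from Mcm2, Mcm10 and Cdc45. Counted by promoter, it was in 6 of 10 member promoters, against 2.26% of all 32851 promoters of that length. CCAAT, searched on both strands, was in 9 of the 10 member promoters and in 37.4% of all. The cell cycle element searched as TTTGAA or TTCGAA was in 3 of 10 and in 19.2% of all. A match is a string of letters only, and genes with and without E2F matches are found both among the members that passed the test and among those that did not.

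Transcripts of 3 of the 10 genes were higher in Usp7 cKO: those of Cdt1, the loader, 2.55-fold, of Mcm6 1.96-fold and of Mcm2 1.60-fold. The other 4 subunits of the ring and Mcm10, Cdc45 and Clspn did not pass the test, with mean levels 1.10 to 1.33 times those of Usp7 WT. No member was called lower. Calls are from limma on log2(TPM + 0.5) with labelled sex as a covariate and Benjamini-Hochberg adjustment over 27580 genes, two-sided at 0.05. Under this rule 9.22% of all genes tested were called higher and 4.67% lower (13.9% in all, 66.4% of them higher, while 48.2% of the calls were higher when TPM was first rescaled with size factors), so that 3 of 10 lies above the background share of higher genes, with few members behind it. All 10 estimates were positive, as were 59.5% of those of all genes, and their median was 0.22 on the log2 scale, against 0.06 for all genes. On exon bin counts summed per gene, edgeR and DESeq2 called the same 3 members and no other, with 27.2% and 27.7% of all genes called in either direction. The TPM of the groups did not overlap for these 3 members, and 8.19% of all genes had no overlap in this direction.

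**Figure D1:**
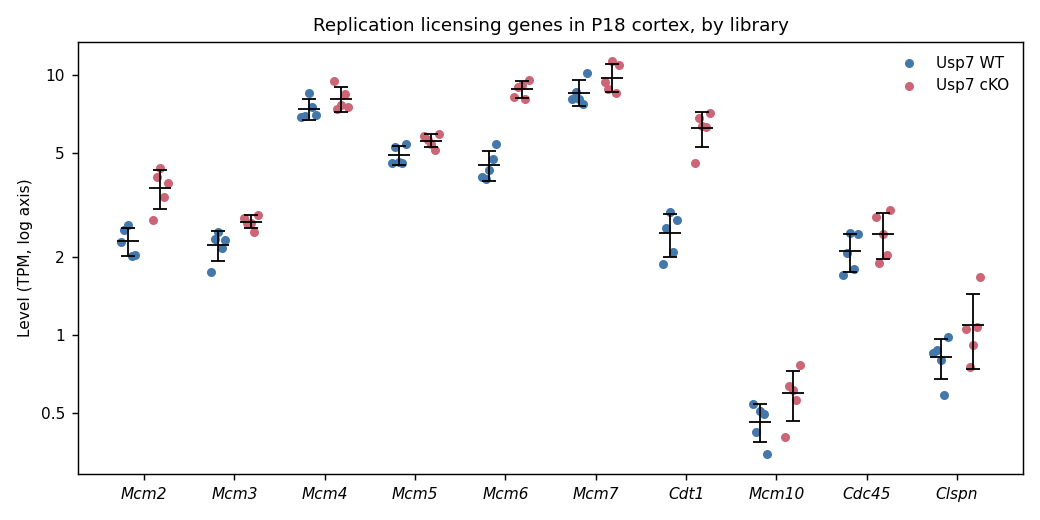
Level of each of the 10 genes in TPM (log axis), with 1 point per library, 5 Usp7 WT and 5 Usp7 cKO. Black marks give the mean and SD. The points of the groups are separate for Mcm2, Mcm6 and Cdt1 and overlap for the other 7 genes.

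Mcm6, a subunit of the helicase ring, is on chr1:128331590-128359664 on the minus strand (GRCm38). Its level was 4.06, 3.99, 4.32, 4.77 and 5.45 TPM in Usp7 WT replicates 1 to 5 and 8.26, 8.97, 9.20, 8.13 and 9.61 TPM in Usp7 cKO replicates 1 to 5. Every Usp7 cKO library was above every Usp7 WT library, with a gap between 5.45 and 8.13 TPM. The means were 4.52 ± 0.605 and 8.83 ± 0.629 TPM (SD, n = 5 each). The difference was 0.90 on the log2(TPM + 0.5) scale (SE 0.105, 95% interval 0.67 to 1.13, limma adjusted p = 0.000396). It rested on 288 to 696 exon bin reads per library.

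Mcm2, another subunit of the ring and the one known to bind histones, is on chr6:88883474-88898780 on the minus strand. It was at 2.28, 2.53, 2.65, 2.02 and 2.04 TPM in Usp7 WT and at 2.76, 4.05, 4.39, 3.40 and 3.83 TPM in Usp7 cKO, in replicate order. The groups were separate by a narrow margin, since Usp7 cKO replicate 1 lay just above Usp7 WT replicate 3. The means were 2.30 ± 0.283 and 3.69 ± 0.629 TPM (SD, n = 5 each). The log2 difference was 0.57 (SE 0.134, 95% interval 0.27 to 0.87, limma adjusted p = 0.0182), on 211 to 449 reads per library.

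The other 4 subunits of the ring had smaller differences, and none passed the test. Mcm3 (chr1:20802968-20820312, minus strand) was at 1.75, 2.35, 2.50, 2.16 and 2.33 TPM in Usp7 WT and at 2.82, 2.70, 2.71, 2.49 and 2.91 TPM in Usp7 cKO. Of the 5 Usp7 cKO libraries, 4 lay above every Usp7 WT library, and Usp7 cKO replicate 4 lay just under Usp7 WT replicate 3. The log2 difference for Mcm3 was 0.25 with a 95% interval of -0.02 to 0.52 (limma adjusted p = 0.204). Mcm5 (chr8:75109569-75128439, plus strand) was at 4.91 ± 0.409 TPM in Usp7 WT against 5.60 ± 0.329 TPM in Usp7 cKO (SD, n = 5 each), a log2 difference of 0.17 (-0.03 to 0.38, adjusted p = 0.247). Mcm7 (chr5:138164583-138172422, minus strand) was at 8.57 ± 0.975 and 9.79 ± 1.21 TPM, a difference of 0.18 (-0.03 to 0.39, adjusted p = 0.248). Mcm4 (chr16:15623897-15637400, minus strand) was at 7.39 ± 0.697 and 8.10 ± 0.869 TPM, a difference of 0.12 (-0.05 to 0.29, adjusted p = 0.330). For these 4 genes the interval includes 0 and its upper bound lies between 0.29 and 0.52, so the size seen for Mcm6 was outside all 4 intervals. The estimate for Mcm2, 0.57, was also outside them, but its own interval (0.27 to 0.87) overlapped all 4. Differences between subunits were not tested.

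**Figure D2:**
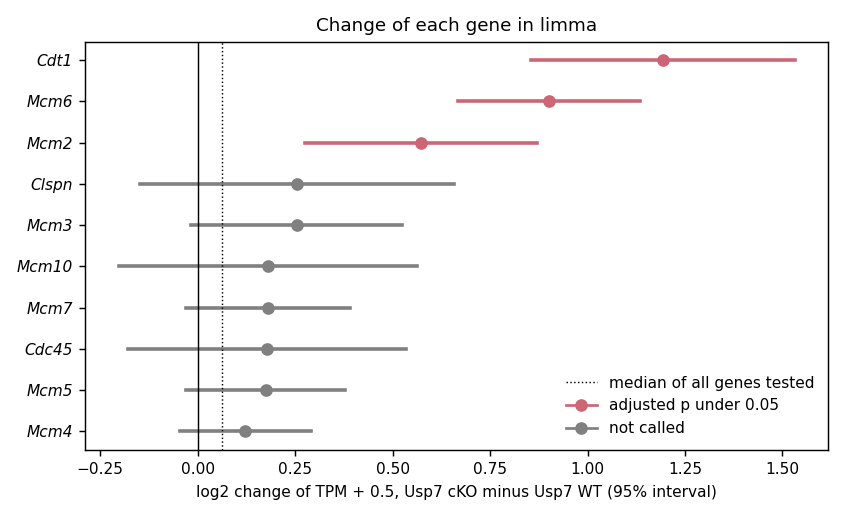
Change of each gene between Usp7 cKO and Usp7 WT in limma, on the log2(TPM + 0.5) scale, with 95% intervals and 5 libraries per group. Cdt1, Mcm6 and Mcm2 (coloured) lie above 0 with their whole interval, the other 7 intervals include 0, and the dotted line marks the median of all genes, 0.06.

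The 6 subunits form the ring in equal numbers as proteins, but their transcripts were not equal in either group. In Usp7 WT the order of levels was Mcm7, Mcm4, Mcm5, Mcm6, Mcm2 and Mcm3. Mcm7 and Mcm4 overlapped in range, as did Mcm5 and Mcm6, and Mcm2 and Mcm3, while Mcm4 was above Mcm5 without overlap. In Usp7 cKO the order was Mcm7, Mcm6, Mcm4, Mcm5, Mcm2 and Mcm3. Mcm6 followed Mcm7 there, and its range overlapped those of Mcm7 and Mcm4. The summed level of the 6 subunits was 29.9 ± 1.85 TPM (27.7 to 32.5) in Usp7 WT against 38.7 ± 1.94 TPM (36.2 to 40.7) in Usp7 cKO. Without Mcm2 and Mcm6, left out because they were the subunits called, the sums were 23.1 ± 1.43 TPM (21.4 to 25.0) and 26.2 ± 1.49 TPM (24.6 to 27.5), and the ranges overlapped. The share of Mcm6 in the sum was 15.1% ± 1.52 (13.4% to 16.8%) in Usp7 WT against 22.8% ± 0.992 (21.4% to 23.9%) in Usp7 cKO (SD, n = 5 each). The share of Mcm2 was 7.72% and 9.52%, that of Mcm7 28.6% and 25.2%, that of Mcm4 24.8% and 21.0%, that of Mcm5 16.4% and 14.5%, and that of Mcm3 7.40% and 7.05%. Shares within a sum are tied to each other, and they were given no test.

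**Figure D3:**
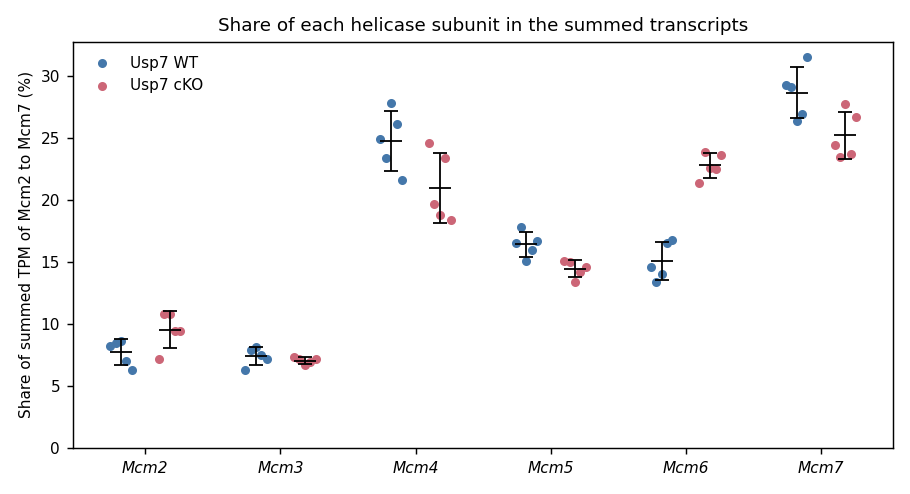
Share of each of Mcm2 to Mcm7 in their summed TPM (%), with 1 point per library and black marks for mean and SD (n = 5 per group). Mcm6 lies at 13.4% to 16.8% in Usp7 WT but at 21.4% to 23.9% in Usp7 cKO, and the mean shares of Mcm3, Mcm4, Mcm5 and Mcm7 are lower in Usp7 cKO.

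Cdt1, which brings the ring to the origin, had the largest fold among the 10 genes. It is on chr8:122568015-122573554 on the plus strand. Its level was 1.87, 2.59, 2.97, 2.08 and 2.78 TPM in Usp7 WT replicates 1 to 5 and 4.61, 6.82, 6.36, 6.33 and 7.17 TPM in Usp7 cKO replicates 1 to 5. The groups were separate, and the lowest Usp7 cKO library was replicate 1. The means were 2.46 ± 0.467 and 6.26 ± 0.985 TPM (SD, n = 5 each). The log2 difference was 1.19 (SE 0.152, 95% interval 0.85 to 1.53, limma adjusted p = 0.000709), on 83 to 377 reads per library. In Usp7 WT, Cdt1 ranged with Mcm2, Mcm3 and Cdc45. In Usp7 cKO it stood above Mcm5 in mean, with overlapping ranges.

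Gmnn, which encodes the CDT1 inhibitor geminin, was at 2.16 ± 0.411 TPM in Usp7 WT against 1.89 ± 0.151 TPM in Usp7 cKO (log2 difference -0.14, limma adjusted p = 0.560). The ratio of Cdt1 to Gmnn levels in the same library was 1.16 ± 0.220 (0.833 to 1.40) in Usp7 WT against 3.31 ± 0.405 (2.62 to 3.68) in Usp7 cKO, with no overlap. Cdc6, the other partner in loading, was at 0.586 TPM in Usp7 WT against 0.539 TPM in Usp7 cKO (adjusted p = 0.923). Mcmbp, which encodes a protein that binds MCM subunits and has a part in their unloading, was at 18.6 and 19.5 TPM (log2 difference 0.07, adjusted p = 0.590).

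The members that act after loading had the lowest mean levels. Cdc45 (chr16:18780447-18811987, minus strand), the helicase cofactor, was at 1.71, 2.06, 2.46, 1.80 and 2.45 TPM in Usp7 WT and at 2.85, 1.89, 2.44, 2.03 and 3.02 TPM in Usp7 cKO. The groups overlapped, and the log2 difference was 0.18 (-0.18 to 0.53, limma adjusted p = 0.519). Clspn (chr4:126556935-126593903, plus strand) was at 0.852, 0.876, 0.803, 0.588 and 0.980 TPM in Usp7 WT and at 1.06, 0.754, 0.913, 1.07 and 1.68 TPM in Usp7 cKO. Usp7 cKO replicate 5 was the highest, and the others lay within or near the Usp7 WT range. The log2 difference for Clspn was 0.25 (-0.15 to 0.66, adjusted p = 0.400). Mcm10 (chr2:4989714-5012791, minus strand) was at 0.465 ± 0.0788 TPM in Usp7 WT against 0.597 ± 0.131 TPM in Usp7 cKO, with the Usp7 cKO libraries between 0.406 and 0.768 TPM. It reached the filter of a mean of 0.5 TPM only through the Usp7 cKO libraries. Its log2 difference was 0.18 (-0.20 to 0.56, adjusted p = 0.541). With 32 to 80 reads per library for Mcm10, 62 to 183 for Clspn and 114 to 197 for Cdc45, these were among the members with the fewest reads. The intervals include 0, and a difference of any size within them remains possible. On summed bin counts Clspn was at 0.42 with edgeR (unadjusted p 0.0479, adjusted p = 0.129) and 0.41 with DESeq2 (0.0489 and 0.135). With edgeR and no filter it was at 0.42 (0.0103 and 0.0573), and none of these fits called it.

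The exon bins, non-overlapping pieces of annotated exons with read counts per library, showed how the change was spread along each gene. In Mcm6, 19 of 24 bins had a mean count of at least 10. All 19 had a higher mean CPM (counts scaled to the library's total) in Usp7 cKO, with log2 ratios of 0.702 to 1.37 and a median of 1.06, and in 14 of them the groups did not overlap. In Cdt1, all 10 such bins of 20 were higher (1.07 to 1.93, median 1.36), 6 without overlap. In Mcm2, 17 of 18 such bins were higher (-0.0315 to 1.04, median 0.724), 6 without overlap. Over all genes, 6.53% of bins at this count were higher in Usp7 cKO without overlap. In Mcm4, Mcm5 and Mcm7, 15 of 16, 10 of 16 and 21 of 26 bins were higher, none without overlap. The mean count was taken over all 10 libraries. Several bins of Cdt1, and some of Mcm2 and Mcm6, reached it only through the Usp7 cKO libraries. For those bins a higher level in Usp7 cKO was partly set by the filter. Bins of 1 gene share its libraries and are not replicates.

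**Figure D4:**
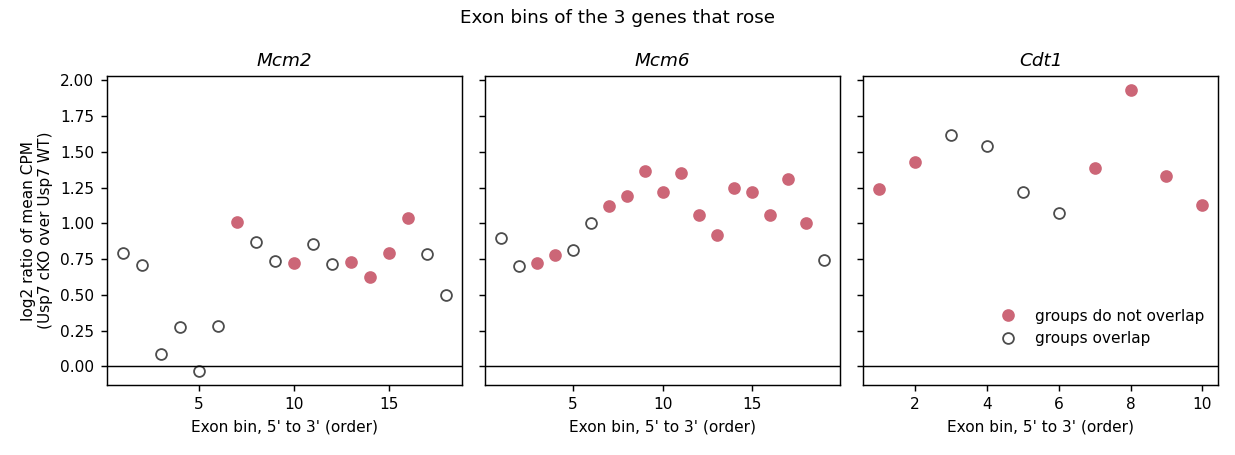
log2 ratio of mean CPM, Usp7 cKO over Usp7 WT, in each exon bin with a mean count of at least 10, in order from the 5′ to the 3′ end of Mcm2, Mcm6 and Cdt1. Filled points are bins whose groups of 5 libraries do not overlap. All bins shown for Mcm6 and Cdt1 lie above 0, and in Mcm2 a run of 4 bins toward the 5′ end has the lowest ratios. Some bins reached the count only through the Usp7 cKO libraries.

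Use of single bins relative to the rest of the gene was tested with edgeR's diffSpliceDGE in the 7 members with at least 2 bins at this count, which left out Mcm3, Mcm10 and Clspn. None of the 7 passed (Simes p 0.307 to 0.964, adjusted p = 1 for each), none had an unadjusted Simes p under 0.05, and 2.85% of 13954 genes were called. In Mcm2, 4 bins toward the 5′ end, from chr6:88893042-88893152 to chr6:88893477-88893513, had the lowest ratios, between -0.0315 and 0.28. The lowest relative use, -0.47 on the log2 scale, was in the 20-base bin at chr6:88893186-88893205 (unadjusted p 0.0276, diffSpliceDGE adjusted p = 0.837), so this dip did not pass the test. No intron of the deposited intron table lay within a member, and intron use of these genes was not analysed.

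Some members share their locus with other genes, and the strand setting of the counting is not given in the sources used here, so reads from overlapping genes cannot be told apart. The starts of 3 members lie within 1000 bases of a gene on the opposite strand. These are Prkdc beside Mcm4 (466 bases), Ap4m1 beside Mcm7 (420 bases) and Ufd1 beside Cdc45 (208 bases), and the last pair overlap the member. Prkdc, a DNA repair kinase, was at 12.7 TPM in Usp7 WT against 11.4 TPM in Usp7 cKO (limma adjusted p = 0.291). Ap4m1 was at 6.20 and 7.26 TPM (adjusted p = 0.340), and Ufd1, a cofactor of the p97 segregase, at 33.4 and 36.0 TPM (adjusted p = 0.352). Cops6, which overlaps the 3′ end of Mcm7 and encodes a COP9 signalosome subunit, was at 65.7 and 64.0 TPM (adjusted p = 0.721). The miRNA genes inside Mcm7 were listed at 0 for Mir25 and Mir93 and at 3.30 and 2.71 TPM for Mir106b (adjusted p = 0.750). In Clspn, Mir7119 was listed at 0, and the pseudogene Gm12936 was at 2.08 and 2.46 TPM (adjusted p = 0.768). Mcm6 and Mcm2 overlapped no other annotated gene. Cdt1 lies within the span of the annotated readthrough gene Gm20388, which has no value in the gene table.

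Of the members, Mcm4 and Cdc45 share chromosome 16 with Usp7, at 6.93 and 10.1 Mb from it, and neither passed the test. Mcm2, which passed the test, lies on the same chromosome as Neurod6, the gene that NEX-cre is named for, 33.2 Mb from it. The part of either locus in the members' values was not tested.

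The genotype difference of each member was compared between the labelled sexes with a product term in the same limma model. No member passed this test (limma adjusted p above 0.999 for each), and 2 genes of the whole series did. The 2 libraries whose sex goes against the label stand in this test as labelled. The product term was not fitted without them. In the genotype fit without both of them, the log2 differences were 1.31 for Cdt1, 0.86 for Mcm6 and 0.68 for Mcm2, and all 3 calls were kept.

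After the mean of each genotype was taken out, the members varied together only in part over the 10 libraries. Over the 45 pairs the median Pearson r was 0.264, with 11 pairs above 0.5 and 15 below 0. The highest value was that of Mcm3 and Cdc45, at 0.728, followed by Cdc45 and Clspn at 0.668 and Mcm2 and Cdt1 at 0.644. Mcm6 and Cdt1 were at 0.407, and Mcm2 and Mcm6, both subunits of the ring that rose, at -0.0357. The mean of the members' scaled residuals was highest in Usp7 cKO replicate 5 (0.947) and lowest in Usp7 WT replicate 1 (-0.722). These values describe 10 libraries that share depth and composition, and have no p. Other genes of at least 1 TPM were ranked by likeness to that mean, leaving out pseudogenes and symbols of the Gm or Rik form. The highest were Grid1 (r = 0.951), B3gat2 (0.950), Rtl9 (0.946), Kdm4d (0.944) and Tle4 (0.922), again over 10 libraries. They are the top of a ranking of many genes, and the values that such a ranking gives by chance were not tested.

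The rest of the replication machinery was read from lists of genes by role. Among 9 tested genes of origin recognition and loading control, none was called by limma, edgeR or DESeq2, none had an unadjusted limma p under 0.05, and the median log2 difference was -0.00. Gmnc was under the filter. Among 16 genes of origin firing and the fork, none was called by limma, 2 had an unadjusted p under 0.05, and edgeR and DESeq2 on summed bin counts each called 3 higher. Their median was 0.13. Ticrr, which encodes the origin firing factor treslin, was under the filter and had no limma test there. Its level was 0.161 ± 0.0456 TPM (0.101 to 0.209) in Usp7 WT against 0.672 ± 0.156 TPM (0.509 to 0.886) in Usp7 cKO (SD, n = 5 each), with no overlap, and with no filter limma called 1 gene of this list higher. Among 13 genes of ubiquitin ligases and helicase unloading, none was called by limma, 3 had an unadjusted p under 0.05, and edgeR and DESeq2 each called 1 higher. Their median was 0.05, and Lrr1 was under the filter. Of all genes tested, edgeR called 3295 of 24057 higher, DESeq2 3191 of 24038 and limma with no filter 2279 of 44015.

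In the DNA synthesis list, 5 of 26 genes rose and none fell in limma (median 0.12), against 9.22% of all genes called higher. On summed bin counts edgeR called 6 higher and 1 lower, and DESeq2 7 higher and 1 lower. Over all genes, edgeR called 3295 of 24057 higher and DESeq2 3191 of 24038. Pole, the catalytic subunit of the leading strand polymerase, went from 1.17 ± 0.0494 TPM in Usp7 WT to 2.48 ± 0.391 TPM in Usp7 cKO (SD, n = 5 each, log2 difference 0.83, limma adjusted p = 0.00171). Prim1, the catalytic subunit of primase, went from 1.91 to 3.57 TPM (0.75, adjusted p = 0.00528). Chaf1b, a subunit of the histone chaperone CAF-1, went from 0.472 to 1.34 TPM (0.91, adjusted p = 0.00300) and reached the filter only through the Usp7 cKO libraries. Dna2, a nuclease of Okazaki fragment processing, went from 1.73 to 2.86 TPM (0.58, adjusted p = 0.0182). Its call was lost without Usp7 cKO replicate 4, without Usp7 WT replicate 1 and with Xist level as the covariate (adjusted p 0.0517 to 0.0615). Pole4, a small subunit of the same polymerase as Pole, went from 15.1 to 18.3 TPM (0.27, adjusted p = 0.0274). Its call was lost in 10 of 21 alternatives (adjusted p 0.0525 to 0.119 over the 10). They included the fit without both libraries of discordant sex. They also included those without Usp7 cKO replicate 1, 2, 3 or 5 and without Usp7 WT replicate 1, 2 or 4. Pcna, the sliding clamp, was at 26.6 and 23.1 TPM and did not pass (-0.19, adjusted p = 0.155). It was called lower in 4 of 21 alternatives, the count fits with edgeR and DESeq2 and the fit without Usp7 WT replicate 4 (lowest adjusted p = 0.00813).

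In the list of E2F and G1 control, 3 of 29 genes rose in limma, all of them inhibitors of cyclin-dependent kinases, and none fell (median 0.17). In limma this share was near the 9.22% of all genes called higher. Cdkn1a, the p53 target that encodes p21, went from 17.8 to 36.7 TPM (log2 difference 1.02, limma adjusted p = 3.71e-05). Cdkn1c, which encodes p57, went from 4.19 to 14.2 TPM (1.69, adjusted p = 0.000179). Cdkn2a, which encodes p16 and p19ARF, went from 0.352 to 1.26 TPM (1.03, adjusted p = 0.0414) and reached the filter only through the Usp7 cKO libraries. The Cdkn2a call was lost in 11 of the 20 alternatives that tested it (adjusted p 0.0513 to 0.111 over the 11). They included the fit without both libraries of discordant sex. They also included those without Usp7 cKO replicate 1, 2, 3 or 4 and without Usp7 WT replicate 2, 3, 4 or 5. In this list edgeR called 10 of the 29 genes higher and 1 lower, and DESeq2 9 higher and 1 lower. Of all genes, edgeR called 3295 of 24057 higher and 3253 lower, and DESeq2 3191 of 24038 higher and 3475 lower. The count fits thus called a larger share of this list higher than of all genes. Of 11 genes of the replication checkpoint, Wee1, the kinase that restrains CDK1, fell from 21.3 to 16.2 TPM (-0.39, adjusted p = 0.00902), a call lost without both libraries of discordant sex (adjusted p = 0.0615). Chek1, the kinase that claspin serves, was at 1.32 and 1.25 TPM (-0.03, adjusted p = 0.929).

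**Figure D5:**
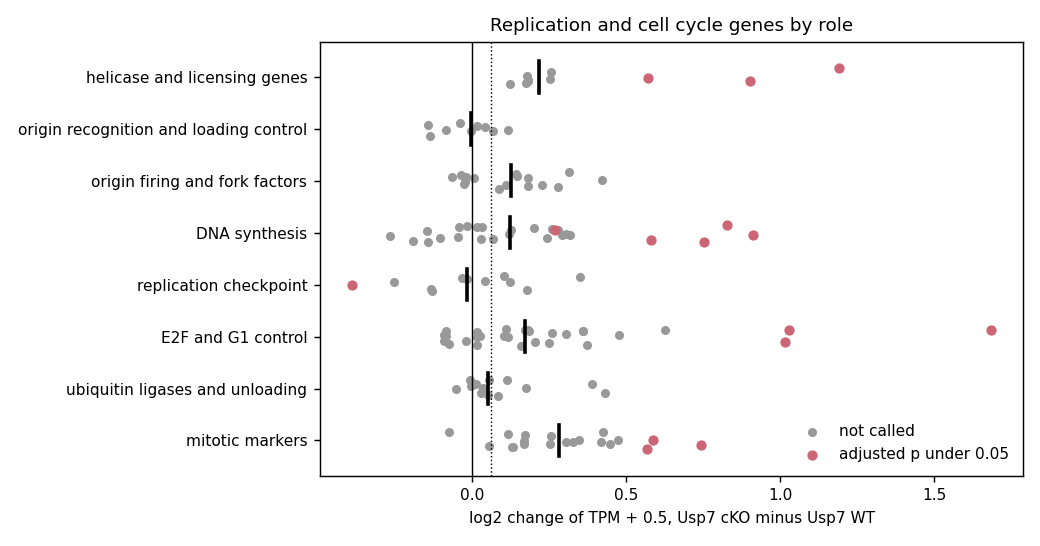
log2 difference of TPM + 0.5, Usp7 cKO minus Usp7 WT, for each tested gene of the lists by role, with 5 libraries per group. Coloured points passed the limma test, black bars mark list medians, and the dotted line marks the median of all genes. The helicase and licensing genes have 3 coloured points, the DNA synthesis list 5, and the lists of origin recognition, origin firing and ubiquitin ligases have none.

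Markers of dividing cells and of precursor cells were read from the same limma fit, in which 9.22% of all genes tested were called higher. Of 20 mitotic markers, 3 rose (Foxm1, Aurkb and Birc5), with a median of 0.28, and their summed level was 26.0 to 39.8 TPM in Usp7 WT against 37.5 to 44.4 TPM in Usp7 cKO. On summed bin counts edgeR called 8 of these markers higher and DESeq2 9, against 3295 of 24057 and 3191 of 24038 of all genes. Without both libraries of discordant sex limma called none of them, with log2 differences of 0.70 for Foxm1 (adjusted p = 0.0567), 0.56 for Aurkb (0.0924) and 0.73 for Birc5 (0.0510), against 0.74, 0.57 and 0.59 with all libraries. Mki67, the proliferation marker, was at 2.42 ± 0.513 TPM in Usp7 WT against 3.20 ± 0.505 TPM in Usp7 cKO (log2 difference 0.35, limma adjusted p = 0.185), and was called higher in 3 of 21 alternatives, the count fits with edgeR and DESeq2 (lowest adjusted p = 0.00797). Of 10 tested neuroblast and progenitor markers, 4 rose (Cd24a, Nes, Igfbpl1 and Pax6, median 0.48), with Cd24a going from 19.9 to 37.2 TPM (adjusted p = 4.08e-05) and Nes from 5.48 to 9.58 TPM (adjusted p = 0.00568). Their sum was 86.3 to 117 TPM and 126 to 149 TPM, and Eomes was under the filter. On summed bin counts, edgeR and DESeq2 each called 8 of the list higher. Of 14 markers of oligodendrocyte precursors, 3 rose (C1ql1, Lhfpl3 and Cacng4, median 0.13), and the sum was 719 to 849 TPM and 752 to 880 TPM. The part of these cell types in the rise of Cdt1, Mcm6 and Mcm2 was not tested.

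Among the other marker lists, those of glutamatergic neurons and microglia held most of the genes that fell. Over all genes tested, limma called 4.67% lower and 9.22% higher. On summed bin counts edgeR called 3295 of 24057 genes higher and 3253 lower, and DESeq2 3191 of 24038 higher and 3475 lower. Of 10 markers of cortical glutamatergic neurons, the cells that NEX-cre acts in, 9 fell (median -0.40), among them Slc17a7 from 1430 to 1090 TPM. Their sum was 3360 to 3760 TPM in Usp7 WT against 2410 to 2940 TPM in Usp7 cKO. The largest fall of this list was that of Neurod6, the gene that NEX-cre is named for. It went from 52.1 to 24.2 TPM (log2 difference -1.10, limma adjusted p = 1.11e-05), and the cause was not tested. Of 17 microglia markers, 15 fell (median -0.50), with sums of 523 to 598 TPM and 364 to 413 TPM. Astrocyte markers had 2 of 10 called higher (Sox9 and Gfap), with sums of 2520 to 2860 TPM and 2330 to 2830 TPM. Of their 10 estimates, 6 were positive and 4 negative. On summed bin counts edgeR and DESeq2 each called 2 astrocyte markers higher and 3 lower. Of 8 ependymal and choroid plexus markers 1, Ccdc153, was called higher, with sums of 45.9 to 906 TPM and 33.5 to 457 TPM. Their estimates were positive for 5 and negative for 3. In this list edgeR called 1 higher and 1 lower, and DESeq2 2 higher and 1 lower. Of 10 endothelial markers none was called by limma, edgeR or DESeq2, and none had an unadjusted limma p under 0.05. The calls of Aurkb, Birc5, Cacng4, Igfbpl1, Pax6, Sox9, Gfap and Ccdc153 were each lost in at least 3 alternatives (adjusted p 0.0501 to 0.193), and leaving out any single library ended at least 1 of them. Without both libraries of discordant sex, 2 neuroblast and progenitor markers, 1 marker of oligodendrocyte precursors, 5 glutamatergic and 15 microglia markers were still called, and none of the astrocyte or ependymal lists. That fit called 1315 of 27667 genes higher and 868 lower. No gene of the marker lists was at 0 in all libraries. Their part in the members' values was not tested.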

How the data were processed

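Gene levels in TPM and counts of exon bins and introns were deposited by the authors for 10 libraries. Per the submitters' processing notes, STAR 2.7.9a, Subread, featureCounts and SAMtools 1.10 were used with build GRCm38, and the order of the steps is not given in the sources used here. TPM from the deposited table was analysed as log2(TPM + 0.5) with limma 3.58.1 in R 4.3.3 (trend and robust), keeping genes whose mean reached 0.5 TPM, with labelled sex as covariate and Benjamini-Hochberg adjustment over all genes. The deposited bin counts were used for exon use (edgeR 4.0.16, bins with a mean count of at least 10) and, summed per gene, for edgeR and DESeq2 1.42.0 as alternatives. Other alternatives changed the pseudocount (0.1 or 1), filter, scaling and covariate, or left out a library. The genotype fits with limma, edgeR and DESeq2 and the exon use test were checked on simulated data. The smallest simulated gene change was larger than the changes of Mcm2, Mcm6 and most other named genes. The product of genotype and sex and the fit with Xist level were not checked in this way. TPM is relative to the other transcripts of a library, so it does not give RNA per cell. The 287 repeated lines of the gene table were used once.

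The members and all lists were chosen with earlier results of these data known. Named genes are the members, Usp7, up to 4 genes of each pathway list and up to 3 of each marker list with the smallest p among those called, 7 genes given whatever their p (Mcmbp, Gmnn, Cdc6, Pcna, Chek1, Cdkn1a and Mki67), the 5 genes most like the members, and genes that overlap a member or start within 1000 bases on the opposite strand. Pole4, Pax6, Ticrr, the neighbours of Cdt1, Podxl2, Optn and Taf6 were named after their values were seen. Sequences are from RefSeq, build GRCm38.p6, and positions are from GENCODE M21. Counts carry no molecular identifiers.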

Additional observations from a re-analysis of the deposited data

Results flagged for a closer look

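In 114 groups of 5 libraries examined for a single library far from the rest, 4 stood out, and chance gives about 1 in 20. None belonged to a helicase or licensing gene. Chaf1b was at 0.885 TPM in Usp7 cKO replicate 1, with the other Usp7 cKO libraries at 1.40 to 1.58 TPM. Prim1 was at 2.52 TPM in Usp7 WT replicate 2, with the others at 1.73 to 1.80 TPM. Gfap was at 133 TPM in Usp7 cKO replicate 3, with the others at 91.6 to 99.5 TPM. B3gat2 was at 11.1 TPM in Usp7 cKO replicate 5, with the others at 8.43 to 9.07 TPM.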

How the results depend on the processing

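Cdt1, Mcm6 and Mcm2 were called higher, and no other member was called, in each of 21 alternatives. Their log2 differences ranged from 1.07 to 1.32, from 0.84 to 0.96 and from 0.50 to 0.68, and the highest adjusted p of Mcm2 was 0.0494. No member changed direction, and exon use called no member under any alternative run. The number of genes called was 3832 and became 6548 with edgeR, 6666 with DESeq2, 7236 with edgeR and no filter, and 2183 without both libraries of discordant sex (without 1 library each, 2789 to 3586). The cause was not tested. The log2 differences of 2 genes near 0 changed sign. Cdc6 was at 0.153 with edgeR, 0.145 with DESeq2, 0.154 with edgeR and no filter, 0.0282 without both libraries of discordant sex and between -0.18 and 0.0690 without 1 library. Chek1 was at 0.0219, 0.0159 and 0.0226 with the same 3 count fits and between -0.15 and 0.0926 without 1 library. No paired analysis was possible because the labels do not name the pairs. Intron use was not run because no listed intron lies in a member. Reads were fewest for Mcm10 (32 to 80 per library), and 5 libraries per group limit all intervals.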

Other observations

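The genes around Cdt1 were looked at after their values were seen. All 3 protein-coding genes tested within 20000 bases of Cdt1 were higher in Usp7 cKO. Piezo1, which encodes a mechanically gated ion channel, was at 7.04 ± 1.36 TPM in Usp7 WT (5.84 to 9.00) and 18.6 ± 2.53 TPM in Usp7 cKO (15.7 to 22.6, SD, n = 5 each), a log2 difference of 1.35 (limma adjusted p = 5.32e-05). Galns, a lysosomal sulfatase, was at 12.1 ± 0.734 and 17.6 ± 2.16 TPM (0.51, adjusted p = 0.00311). Aprt, an enzyme of purine salvage, was at 41.1 ± 4.98 and 52.1 ± 3.09 TPM (0.35, adjusted p = 0.00776), a call lost with Xist level as the covariate and without both libraries of discordant sex (adjusted p 0.0542 to 0.0628). Around all members, 19 protein-coding neighbours were tested, of which 5 were called higher and 1 lower. Over all genes tested, 9.22% were called higher and 4.67% lower. Apart from those near Cdt1, the genes called higher were Podxl2 near Mcm2 (0.50, limma adjusted p = 0.000551) and Optn near Mcm10 (0.70, adjusted p = 0.000544). The gene called lower was Taf6 near Mcm7 (-0.40, adjusted p = 0.00742). Near Mcm6, neither of the 2 genes tested was called.

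The choroid plexus gene Ttr ranged from 29.9 to 872 TPM within Usp7 WT and from 10.5 to 430 TPM within Usp7 cKO, a spread far wider than that of any helicase gene.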
